A study of Mus musculus with 6 samples.

Results

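The genes described here encode the proteins of the cytosolic ribosome, read from mouse brains taken whole on embryonic day 16.5. Members were the array rows whose platform annotation names 1 gene only, with a symbol of Rpl, Rps or Rplp followed by a digit, or Rpsa. Pseudogene symbols, Rps6k and Rps19bp symbols were left out. The rule gave 218 of 28856 rows, which stood for 62 genes. Of these, 132 rows of 38 genes belong to the large subunit and 86 rows of 24 genes to the small subunit. The study set 3 Tdp2Δ1-3 arrays against 3 wild-type arrays, labelled as biological replicates. Tdp2Δ1-3 is a deletion of exons 1 to 3 of Tdp2, the gene of the phosphodiesterase that removes topoisomerase II peptide from broken DNA ends, and in the labels it is the sole difference between the genotypes. Litter, sex and strain are not given in the labels, and p-values measure the spread between these 6 samples.

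Each ribosome joins a large subunit, which forms peptide bonds, to a small subunit, which reads the messenger RNA. Their proteins are made from separate genes in near-equal amounts, because each protein enters a ribosome mostly as a single copy. Many of their messenger RNAs start with a run of pyrimidines, the terminal oligopyrimidine (TOP) tract, through which mTOR signalling sets their translation. In the embryonic brain, dividing progenitors are known to make more ribosomes than neurons that have stopped dividing.

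The windows below show the annotated start sites of the only member that passed the test, Rps27l, then of the 4 core ribosomal protein genes with the highest and the 4 with the lowest difference, among those with a promoter in the RefSeq table of build GRCm38.p6. They were picked after the values were seen, to show whether genes at both ends carry a pyrimidine run at the start. Each covers 40 bases before and 20 from the start site on, 5′ to 3′ on the gene's strand. Capitals mark every run of at least 8 bases of C or T alone that touches the 10 bases on either side of the start.
Rps27l (chr9:66946046-66946105, + strand): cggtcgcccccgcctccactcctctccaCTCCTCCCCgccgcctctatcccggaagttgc
Rpl24 (chr16:55966235-55966294, + strand): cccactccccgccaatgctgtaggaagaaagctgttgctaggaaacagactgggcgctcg
Rpl5 (chr5:107900488-107900547, + strand): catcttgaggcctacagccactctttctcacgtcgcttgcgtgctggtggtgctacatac
Rps13 (chr7:116334171-116334230, - strand): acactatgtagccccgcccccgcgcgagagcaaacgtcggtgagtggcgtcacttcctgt
Rps21 (chr2:180257339-180257398, + strand): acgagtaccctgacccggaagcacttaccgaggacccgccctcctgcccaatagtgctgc
Rps15a (chr7:118116128-118116187, - strand): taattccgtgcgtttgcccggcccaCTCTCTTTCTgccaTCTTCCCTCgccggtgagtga
Rplp2 (chr7:141447611-141447670, + strand): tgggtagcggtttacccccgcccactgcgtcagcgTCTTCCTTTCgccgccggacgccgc
Rpl12 (chr2:32961672-32961731, + strand): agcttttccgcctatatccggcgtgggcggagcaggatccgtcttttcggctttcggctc
Rpl10a (chr17:28328431-28328490, + strand): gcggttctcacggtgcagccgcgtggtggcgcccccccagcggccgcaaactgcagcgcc
Such a run was present in Rps27l, where it ends before the start, and in Rplp2, where it spans the start. Rps15a held 2 of them, of which the second spans the start. No such run was found near the start in the other 6 windows. Shorter runs, such as the one just after the start of Rpl12, are not marked, and the start is the annotated one. A window without capitals therefore does not show that a gene lacks a TOP tract. Over all 50 member genes with a promoter in the table, 19 (38.0%) held such a run, against 13.5% of 27025 promoters. The motif CCGGAAG, the core recognised by ETS-family factors, was found on either strand in 18 of the 50 (36.0%), against 9.1% of all promoters. Members with the run had a median difference of 0.08 and those without it 0.07 (log2, 19 and 31 genes). Matches of the motif are letters in a window of 250 bases before and 50 after the start. Runs were counted only where they touch the 10 bases on either side of the start. Neither describes binding.

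The deposited values are log2 values in which every row is centred on its median over the 6 arrays. A value therefore shows how far an array lies from the middle of the 6, and levels of different genes cannot be compared. For the same reason the brain identity of the samples could not be checked from marker levels. Tdp2 itself had -1.05, -0.90 and -0.94 in the mutants, against 0.90, 1.10 and 1.34 in the wild types, and so separates the genotypes as labelled. Mutant replicate 3 stood apart in sex-linked genes. Its Xist value was 6.27, and Kdm5d, Uty and Eif2s3y on the Y chromosome had -2.84, -3.30 and -4.32. In the wild types these 4 genes lay between -0.09 and 0.20. Mutant replicate 2 had an Xist value of 1.17 with Y-linked values of 0.03 to 0.20, and whether this sample holds RNA of more than 1 embryo was not tested. Sex-linked genes thus differed between arrays of the mutant genotype. Subunit medians and the differences of some members are also given without mutant replicate 3.

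Ribosomal protein genes had small positive median differences in the Tdp2Δ1-3 brains, and Rps27l was the only one to pass the test. The median difference, mutant minus wild type, was 0.11 over the small subunit rows and 0.05 over the large subunit rows on the log2 scale, against 0.01 over all 23410 gene rows. Differences were above 0 in 81 of 86 small subunit rows and 110 of 132 large subunit rows, where 56.8% of all rows were above 0. At a limma adjusted p under 0.05, with adjustment over all gene rows, 1 small subunit row and 0 large subunit rows were higher, and 0 rows of either subunit were lower. Among all rows 2.34% were called higher and 4.13% lower. Taking both directions, 6.47% of all rows were called, and 0.641% were called with at least a 1.5-fold difference, which 0 member rows reached. At an unadjusted limma p under 0.05, 26 small subunit rows (30.2%) and 15 large subunit rows (11.4%) were higher and 0 were lower, against 10% higher and 11.8% lower in all rows. The large subunit share was near that background. A test without limma's moderation called 0 rows of the table after adjustment, and at an unadjusted p under 0.05 it gave 21 small (24.4%) and 19 large (14.4%) subunit rows higher and 0 lower, against 8.3% higher and 9.1% lower in all rows.

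**Figure D1:**
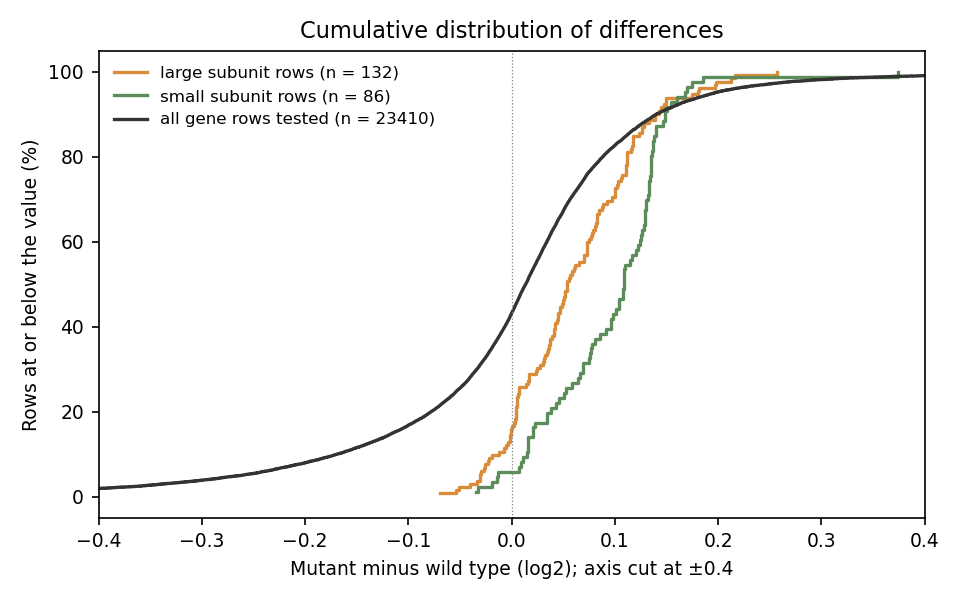
Cumulative distribution of the mutant minus wild-type difference (log2, horizontal axis) for the 132 large subunit rows, the 86 small subunit rows and all 23410 gene rows; the vertical axis gives the percentage of rows at or below each value. The ribosomal curves lie to the right of the curve of all rows at 0.1 and to its left at 0.2, so the members have fewer values at both ends.

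Rows are not independent measurements here. Of the 62 genes, 39 had several rows, up to 14 for Rps12, and 28 rows of 8 genes matched another row of their gene to within 0.01 on every array. With the rows of each gene averaged on each array, 22 of 24 small subunit genes and 29 of 38 large subunit genes had a difference above 0, where 55.4% of 19939 genes did. The medians by gene were 0.08 in the small and 0.04 in the large subunit, against 0.01 over all genes. Rows whose mutants all lay above the wild types numbered 30 of 86 in the small and 27 of 132 in the large subunit (34.9% and 20.5%), against 13.1% of all rows, and 0 rows lay the other way, against 12.6%. By gene, limma called 1 small subunit gene higher, where 2.58% of all genes were called higher and 4.87% lower. Every mutant lay above every wild type in 9 small and 7 large subunit genes, and 0 genes showed the reverse. In all genes 12.8% had every mutant above every wild type and 13.3% every mutant below. The large subunit share, 18.4%, was near that background, and the small subunit share was 37.5%.

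**Figure D2:**
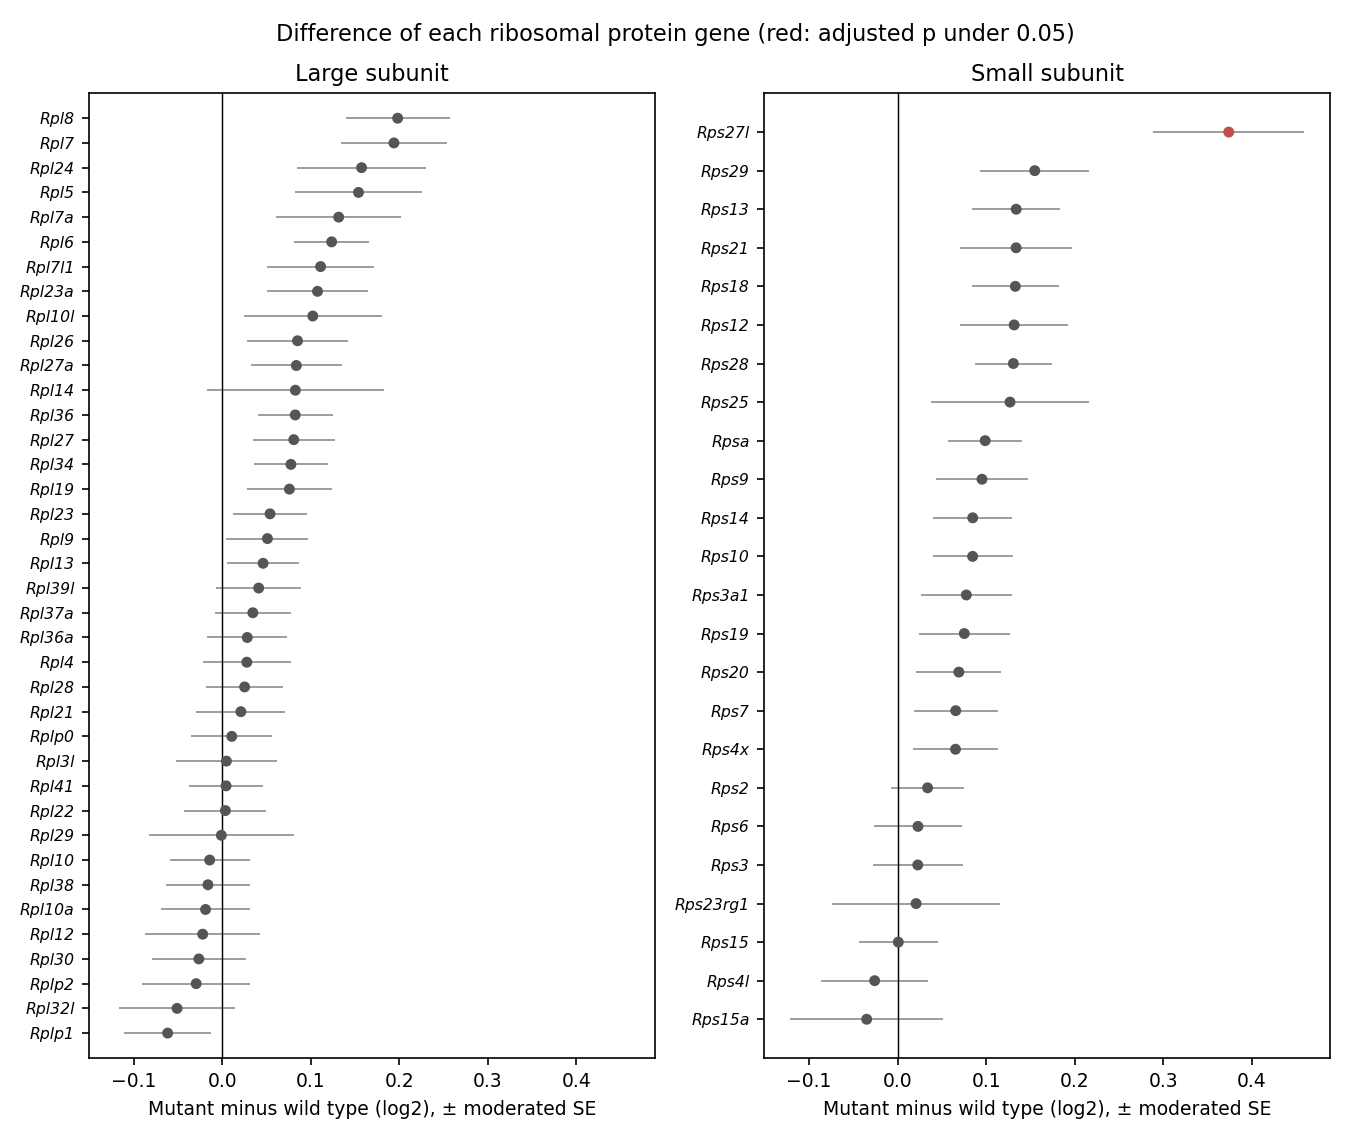
Difference of each gene between Tdp2Δ1-3 and wild-type brains (mutant minus wild type, log2, horizontal axis) with its moderated standard error, rows of a gene averaged, 3 arrays per genotype; large subunit left, small subunit right, genes sorted by difference. Rps27l is the only point in red (adjusted p under 0.05), and most small subunit genes lie between 0.02 and 0.16.

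The shift was carried unevenly by the arrays. Over the 24 small subunit genes the array medians were 0.00, 0.06 and 0.05 in mutant replicates 1, 2 and 3, against -0.07, -0.06 and 0.00 in wild-type replicates 1, 2 and 3. Over the 38 large subunit genes they were 0.01, 0.03 and 0.04 in the mutants, against -0.02, -0.03 and 0.01 in the wild types. Mutant replicate 1 and wild-type replicate 3 were level with each other, so the array medians of the genotypes overlap in both subunits. Wild-type replicate 1 was the lowest array for 33 of the 62 genes and mutant replicate 3 the highest for 27. The median difference of the small subunit rows was 0.08 without wild-type replicate 1 and 0.09 without mutant replicate 3, and that of the large subunit rows was 0.05 in both cases.

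**Figure D3:**
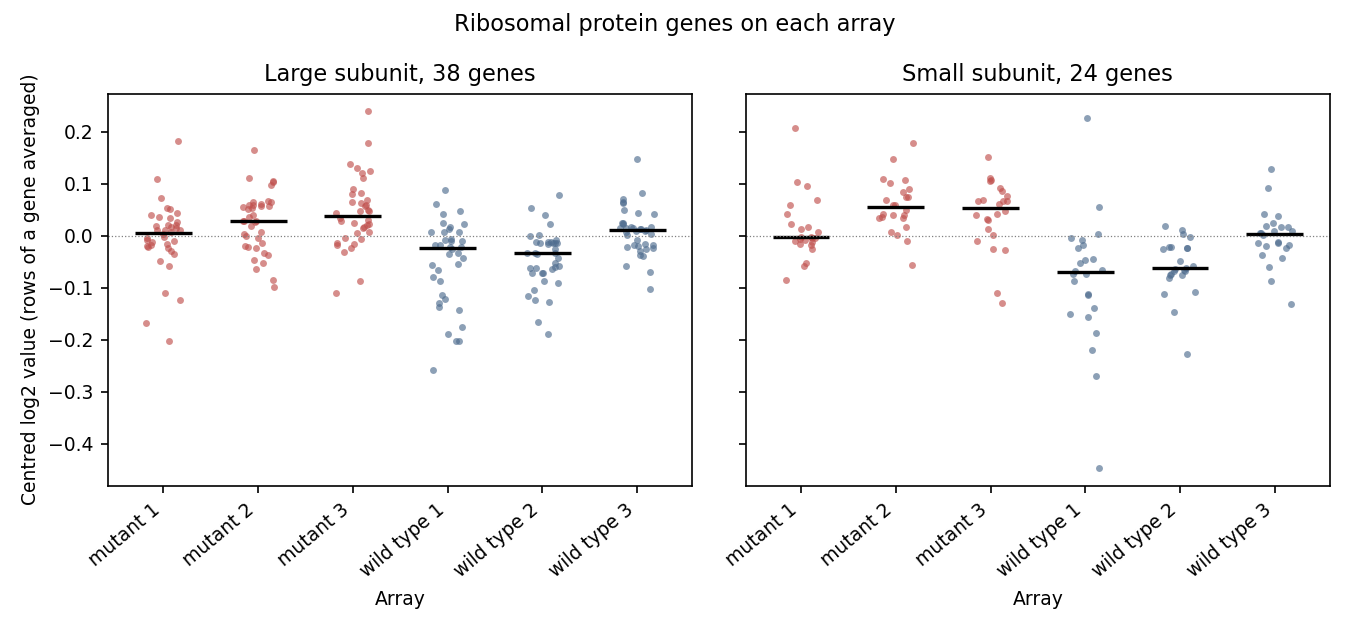
Centred log2 value (vertical axis) of each large subunit gene (left, 38 genes) and small subunit gene (right, 24 genes) on each of the 6 arrays; points are genes with their rows averaged, bars are medians, red is Tdp2Δ1-3 and blue wild type. Wild-type replicates 1 and 2 lie below 0 and mutant replicates 2 and 3 above it, with mutant replicate 1 and wild-type replicate 3 level near 0.

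Rps27l, a paralog of Rps27 whose human counterpart is a known p53 target, rose. The 3 mutants read 0.10, 0.18 and 0.09, against -0.45, -0.23 and -0.09 in the wild types. Every mutant was above every wild type, and the wild types spread more widely than the mutants. The difference was 0.37 ± 0.09 on the log2 scale (SE, n = 3 per genotype), or 1.30-fold, with a limma adjusted p of 0.044 and a range of 0.0034 to 0.23 over the alternatives. It did not reach the 1.5-fold limit named in the series text. The call was kept without wild-type replicate 3 (limma adjusted p = 0.027) and was lost with any other array left out, the values running from 0.055 without mutant replicate 1 to 0.17 without mutant replicate 2. Without mutant replicate 3 the difference was 0.39 (limma adjusted p = 0.11). Its parent Rps27 has no row of its own in the annotation and shares 2 rows with Rps27rt. The first read -0.01, 0.18 and 0.19 in the mutants, against -0.26, -0.14 and 0.01 in the wild types, and the second 0.00, 0.18 and 0.17 in the mutants, against -0.26, -0.18 and 0.00 in the wild types. Mutant replicate 1 and wild-type replicate 3 lay close together in both rows, so the genotypes overlapped. The differences were 0.25 ± 0.08 and 0.26 ± 0.08 (limma adjusted p = 0.12 and 0.096).

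In the small subunit Rps29, Rps13, Rps21, Rps18, Rps12, Rps28 and Rps25 followed, each with a difference of 0.13 to 0.16, and Rps13, Rps18, Rps12 and Rps25 are named after their values were seen. Rps28 had 0.04, 0.08 and 0.05 in the mutants, against -0.07, -0.11 and -0.04 in the wild types, with its 7 rows averaged. The genotypes did not overlap, and the difference was 0.13 ± 0.04 (SE, n = 3 per genotype; limma adjusted p = 0.12 with rows averaged). Its rows ranged from 0.10 to 0.17. Rps29, which carries a zinc-binding motif, had -0.01, 0.11 and 0.15 in the mutants, against -0.16, -0.07 and 0.01 in the wild types. Here mutant replicate 1 fell within the wild-type range, and the difference was 0.16 ± 0.06 (limma adjusted p = 0.18). Without mutant replicate 3 the difference was 0.12. Rps21 had -0.01, 0.06 and 0.07 in the mutants, against -0.22, -0.06 and 0.00 in the wild types, and wild-type replicate 3 lay above mutant replicate 1. Its 2 rows gave 0.10 and 0.17, and the difference was 0.13 ± 0.06 (limma adjusted p = 0.26) and 0.12 without mutant replicate 3.

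Rpsa, a protein of the small subunit also known as the laminin receptor, had 0.02, 0.05 and 0.07 in the mutants, against -0.07, -0.05 and -0.04 in the wild types. All 3 mutants were higher, the 5 rows agreed within 0.09 to 0.11, and the difference was 0.10 ± 0.04 (SE; limma adjusted p = 0.20). Rps19, the gene most often mutated in human Diamond-Blackfan anaemia, had 0.07, 0.15 and -0.01 in the mutants, against -0.02, 0.01 and -0.01 in the wild types. The genotypes overlapped in this single-gene row, with a difference of 0.08 ± 0.05 (limma adjusted p = 0.46). Rows that Rps19 shares with Rps19-ps3 had differences of 0.11, 0.11 and 0.13 (limma adjusted p = 0.21, 0.21 and 0.36). Among these the genotypes overlapped only in the row with 0.13. Rps6, the protein that S6 kinases phosphorylate, had a difference of 0.02 ± 0.05 (limma adjusted p = 0.85), and its 8 rows ran from 0.01 to 0.04. Rps2 and Rps15 were also close to the middle, at 0.03 ± 0.04 and 0.00 ± 0.04. The rows of Rps2 did not agree over the arrays (median correlation -0.55), with differences of -0.01 to 0.07. The lowest small subunit difference was that of Rps15a, read from its only single-gene row. Its values were 0.21, -0.06 and -0.13 in the mutants, against 0.00, 0.00 and 0.13 in the wild types. Mutants lay on both sides of the wild types, and the difference was -0.03 ± 0.09 with all arrays and 0.03 without mutant replicate 3. Rows that Rps15a shares with the pseudogenes Rps15a-ps6 and Rps15a-ps4 had differences of 0.06 and 0.11.

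In the large subunit Rpl8 and Rpl7 had the highest differences. Rpl8, which lies close to the site of peptide bond formation, had 0.02, 0.10 and 0.13 in the mutants, against -0.20, -0.12 and -0.02 in the wild types. Its difference was 0.20 ± 0.06 (SE, n = 3 per genotype; limma adjusted p = 0.082 with rows averaged and 0.090 by row). Rpl7 had 0.02, 0.04 and 0.12 in the mutants, against -0.19, -0.19 and -0.02 in the wild types. Its 4 rows gave differences of 0.18 to 0.22, with limma adjusted p of 0.082 to 0.14. In both genes every mutant lay above every wild type, with wild-type replicate 3 nearest to the mutants. Both were therefore among the closest to a call without reaching it. Without mutant replicate 3, their highest array, the differences of Rpl8 and Rpl7 were 0.17 and 0.16.

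Rpl5, which with Rpl11 carries the small ribosomal RNA of the large subunit and can bind Mdm2, had -0.02, 0.05 and 0.07 in the mutants, against -0.26, -0.13 and 0.03 in the wild types. Wild-type replicate 3 lay above mutant replicate 1, and the difference was 0.15 ± 0.07 (limma adjusted p = 0.26). It rested partly on wild-type replicate 1, without which it was 0.08. Rpl11 has no row of its own and shares 6 rows with Brf2, whose differences ran from 0.03 to 0.13 with 0 called by limma or by the unmoderated test. At an unadjusted limma p under 0.05, 2 of the 6 were higher and 0 lower, against 10% higher and 11.8% lower in all rows. Rpl7a showed that rows of 1 symbol can differ in the size of the difference, although its rows correlated over the arrays (median 0.92). Its 3 rows had differences of 0.03, 0.11 and 0.26, the widest range of any member (0.23), while the other 38 genes with several rows had ranges up to 0.09. The row with 0.26 had -0.05, 0.10 and 0.19 in the mutants, against -0.43, -0.16 and 0.05 in the wild types, so that it rested largely on wild-type replicate 1.

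Differences of the stalk genes lay near or below 0. Rplp0, Rplp1 and Rplp2 form the flexible stalk that recruits the GTPase factors of translation. Rplp1 had 0.03, -0.02 and -0.11 in the mutants, against 0.02, 0.04 and 0.02 in the wild types. It had the lowest difference of all members, -0.06 ± 0.05 (limma adjusted p = 0.54), and without mutant replicate 3 it was -0.02, when Rpl38 was lowest at -0.04. Rplp2 had a difference of -0.03 ± 0.06 and Rplp0 of 0.01 ± 0.05. Whether the stalk genes differ from the other members was not tested. Rpl38, known for its part in translating Hox messenger RNAs in the mouse embryo, stood at -0.02 ± 0.05 over 4 rows, and Rpl10a at -0.02 ± 0.05 over 4 rows. Rpl22 was at 0.00 ± 0.05. In all, 9 large and 2 small subunit genes had a difference below 0, and none of the 11 passed the test.

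The 3 X-linked members, Rpl10, Rpl36a and Rps4x, had 0 rows called among 13, where 2.34% of all rows were called higher and 4.13% lower. Their median was 0.01, and that of all rows was also 0.01. Rpl10, among the last proteins to join the large subunit, had 0.05, -0.05 and -0.02 in the mutants, against 0.01, 0.00 and 0.02 in the wild types. Rpl36a had -0.02, 0.03 and 0.01 in the mutants, against -0.01, -0.07 and 0.01 in the wild types. Rps4x had -0.01, 0.04 and 0.11 in the mutants, against -0.04, -0.02 and 0.01 in the wild types, and mutant replicate 3, whose Xist value was 6.27, was its highest array. Its difference was 0.07 with all arrays and 0.03 without mutant replicate 3. The genotypes overlapped in all 3 genes.

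Paralogs outside the core set were read as well. Rpl7l1 stood at 0.11 ± 0.06, Rpl10l, an autosomal copy of Rpl10 used in male germ cells, at 0.10 ± 0.08, and Rpl39l at 0.04 ± 0.05. Without mutant replicate 3 Rpl10l was at 0.06. Rpl3l, the copy used in muscle, was at 0.00 ± 0.06, Rpl32l at -0.05 ± 0.07 and Rps4l, which the RefSeq table lists as a transcribed pseudogene, at -0.03 ± 0.06. The symbol rule also took in Rps23rg1, a retrogene of Rps23 whose product is not a ribosomal protein, at 0.02 ± 0.09. Apart from Rps27l, no paralog with a row of its own passed the test. Rpl22l1 and Rpl36al had only rows shared with other genes, none of them called. The differences were 0.02 and 0.03 for Rpl22l1, and 0.12 and 0.13 for Rpl36al. Of 77 core genes, 54 had a row of their own, and 16 of the other 23 shared a row with other genes.

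Other genes of ribosome production and translation were read as well, from lists chosen with earlier results known. Of 39 ribosome biogenesis genes measured, 0 passed in either direction by limma, while 9 were higher and 0 lower at an unadjusted p under 0.05, and the unmoderated test called 0. That is 23.1% higher against 10% of all rows, and 82.1% had a difference above 0 against 56.8%, with a median difference of 0.07. Fbl, the methyltransferase that modifies ribosomal RNA, had 0.05, 0.18 and 0.05 in the mutants, against -0.07, -0.05 and -0.10 in the wild types (difference 0.17 ± 0.05, limma adjusted p = 0.090, chosen after its values were seen). Of 77 mitochondrial ribosomal protein genes, 1 rose, Mrpl24 by 0.26 ± 0.06 (limma adjusted p = 0.045), and 0 fell, with a median of 0.05. The share that rose, 1.3%, was below the 2.34% of all rows. Of 17 translation factor and other genes whose messenger RNAs carry TOP tracts, 0 passed by limma, with 1 higher and 1 lower at an unadjusted p under 0.05 and a median of 0.04. The same counts held for 17 genes of mTOR signalling and TOP control, with a median of 0.03. Fau, whose product includes a small subunit protein, had a difference of 0.08 ± 0.06 (limma adjusted p = 0.44).

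Genes of dividing cells and of neurons had larger differences on these arrays than ribosomal protein genes. Among all rows 2.34% were called higher and 4.13% lower, and the counts of these lists stand against those shares. Of 23 cycling-cell genes measured, 23 rose, with a median of 0.57. Their array medians were 0.19 to 0.40 in the mutants, against -0.47 to -0.20 in the wild types. Of 23 genes of mature neurons and synapses, 13 fell and 0 rose, with a median of -0.42. Their array medians were -0.38 to -0.10 in the mutants, against 0.10 to 0.23 in the wild types. Wild-type replicate 1 was the lowest array for cycling genes and the highest for neuronal genes, by list median. Among ribosomal protein genes it was the lowest array for 17 of 38 large and 16 of 24 small subunit genes. Mutant replicate 1 and wild-type replicate 3, level in ribosomal protein genes, had medians of 0.19 and -0.21 in cycling genes. In neuronal genes they had -0.10 and 0.10. Of the other lists, 3 of 12 radial glia genes rose (median 0.13) and 2 of 10 meningeal and fibroblast genes fell (median -0.15). Radial glia genes went both ways, with 8 of 12 above 0 and a range from -0.26 (Slc1a3, not called) to 0.60 (Gli3). Of 8 red cell genes, 2 rose, the embryonic globins Hbb-y by 3.79 ± 0.10 and Hba-x by 1.44 ± 0.07, and the list's array medians were 0.01 to 0.03 in the mutants, against -0.09 to -0.06 in the wild types. In the choroid plexus and endothelium lists 1 of 8 genes fell in each. Choroid plexus genes ran from -0.31 (Trpm3) to 0.64 (Otx2, not called), with 3 of 8 above 0. Of 10 microglia and macrophage genes, 0 passed by limma or by the unmoderated test. At an unadjusted limma p under 0.05, 0 of these 10 were higher and 2 lower, against 10% higher and 11.8% lower in all rows. The part of these lists in the differences of ribosomal protein genes was not tested. In whole brain RNA, a changed number of cells of a type and changed RNA per cell cannot be told apart.

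**Figure D4:**
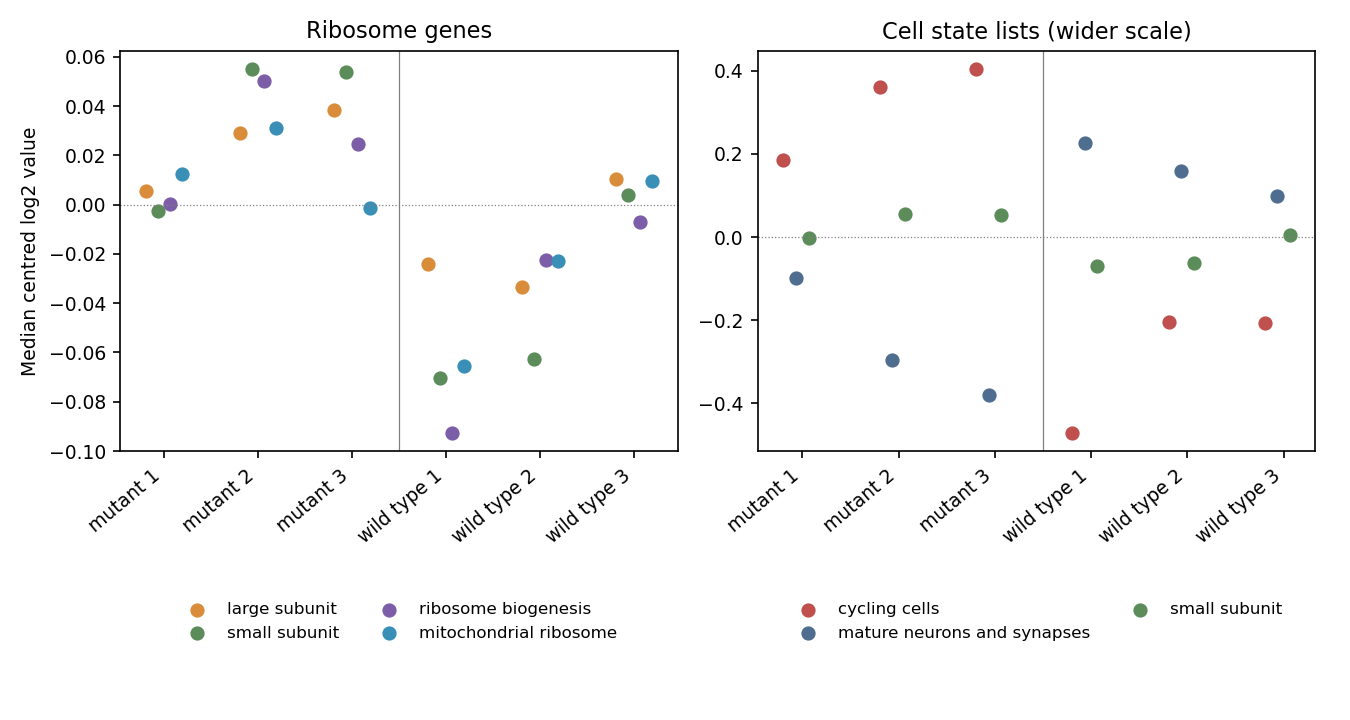
Median centred log2 value (vertical axis) on each array for ribosomal protein, ribosome biogenesis and mitochondrial ribosomal protein genes (left) and, on a wider scale, for cycling-cell and neuronal genes with the small subunit again (right); mutants left of wild types. The small subunit medians span -0.07 to 0.06, against -0.47 to 0.40 for cycling-cell genes.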

How the data were processed

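Brain RNA of 6 embryos, 3 of each genotype, was hybridised to Mouse Gene 1.0 ST arrays (Affymetrix), with groups taken from the sample titles. The deposited log2 values were normalized by the authors with RMA, as the series' design text states; Affymetrix Expression Console appears in the submitters' processing notes. Each row was centred on its median, to within 5e-07, a step no source describes; the table does not state its log base. Array medians over the gene rows lay between -0.01 and 0.01. RMA sets the arrays to a common scale, so these medians cannot show whether an array was shifted as a whole before it. The number of arrays limits the precision.

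Rows were named through the platform annotation, and 23410 rows naming at least 1 gene were tested with limma 3.58.1 in R 4.3.3 (lmFit, eBayes, two-sided, Benjamini-Hochberg over all of them). Calls needed an adjusted p below 0.05. Errors are moderated SEs. In simulated data the fit recovered 99.8% of rows given a 1.5-fold difference, but only 47.7% of those given 1.2-fold. Smaller differences were not simulated. With rows averaged, Rpl8 was the highest member gene after Rps27l, at 1.15-fold. The lack of a call therefore does not show that a member is unchanged. Same-numbered arrays were checked for pairing, since the series text describes 3 pairs of brains. Deviations from the genotype mean correlated at 0.21, 0.05 and 0.20 for numbers 1, 2 and 3, and at -0.22 to 0.06 between different numbers. Numbers 1 and 3 thus correlated above every pair of different number, and number 2 did not. The number was not used as a block in the reported fit, and a fit with it as a block was run as an alternative. Rows of a gene identifier were averaged in a further fit over 19939 genes, added after the data were seen. Chromosomes and promoters came from RefSeq (GRCm38.p6), which held all 62 genes; promoters were listed for 50, and the first of each gene was used. Pathway and marker lists used 1 row per gene.

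Named genes were the called members, the 5 highest and 5 lowest rows of each subunit, and a fixed set (Rpsa, the stalk genes, Rpl5, Rps6, Rps19). Paralogs and their parents were named where they had a row of their own. Some genes with shared rows only are named beside them. Members and lists were chosen with earlier results of these data known. Also tried were leaving out single arrays, a block by replicate number, adjustment over the whole table, equal array medians, cyclic loess, array weights, a robust variance prior, 1 row per gene, core genes only, a test without moderation, an unadjusted p and a 1.5-fold limit.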

Additional observations from a re-analysis of the deposited data

How the results depend on the processing

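No ribosomal protein row was called lower under any alternative run, and both median differences stayed above 0, moving by less than 1 SD of the array medians (0.03 in the large and 0.04 in the small subunit). With each array left out in turn, the median ranged from 0.05 to 0.07 in the large subunit and from 0.08 to 0.13 in the small subunit; the rows called higher ranged from 0 to 2 in each, the rows called lower were 0, and all gene rows called ranged from 145 (without mutant replicate 2) to 2501 (without mutant replicate 1). The large subunit rows called higher, 0 in the reported fit, were 25 with array weights, 15 at an unadjusted p, 4 with the replicate number as a block and 1 with cyclic loess. The small subunit rows called higher, 1 in the reported fit, were 36 with array weights and 26 at an unadjusted p, and 0 with all rows of the table, with core genes only, with the 1.5-fold limit and with the unmoderated test. All gene rows called, 1515 in the reported fit, were 5425 with array weights, 51.3% of them lower against 63.8%, 5115 at an unadjusted p, 2400 with the replicate block, 150 with the 1.5-fold limit and 0 with the unmoderated test. Array weights give wild-type replicate 2 and mutant replicate 2 the most weight (3.65 and 2.25) and the other arrays 0.44 to 0.75; the cause of the higher counts was not tested. Among 82 rows of the named genes, 1203 of 1259 recomputed calls were as reported, 48 were gained, 8 were lost, all of Rps27l. The sign changed in 63 of 1095 refits of these rows, none of them called. A filter on dim rows was not run, since centring removes levels. What signal over background would limit is unknown for the same reason.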

Other observations

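Rows that name a ribosomal protein gene together with other genes were outside the selection and gave a second set of values. Of 239 such rows, 226 (94.6%, against 56.8% of all gene rows) had a difference above 0, with a median of 0.06 (log2, mutant minus wild type), and they ranged from -0.04 to 0.36. By limma 0 passed at an adjusted p under 0.05, while 30 (12.6%, near the 10% of all gene rows) were higher and 0 lower at an unadjusted p under 0.05, and the unmoderated test called 0. Every mutant lay above every wild type in 41 of them (17.2%, against 13.1% of all gene rows). Many may hold probes shared with rows already described, so they are not independent of those. The 2 single-gene pseudogene rows, Rps19-ps3 and Rpl14-ps1, had differences of 0.06 and 0.05.

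The median SD within genotypes was 0.05 in mutants and 0.06 in wild types for small subunit rows, and 0.04 in mutants and 0.05 in wild types for large subunit rows. Over all gene rows it was 0.06 in both genotypes. Mutant replicate 1 and wild-type replicate 3 were the 2 middle arrays for 24 of the 62 genes.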
